A study of Mus musculus with 4 samples.

Results

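The genes described here are 188 solute carrier (Slc) genes, out of 19797 gene symbols in the deposited RefSeq table. They were chosen by name, as symbols made of Slc, a number and a letter, and by level, as a mean of at least 1 FPKM (fragments per kilobase of transcript, scaled to the reads of the library) over all 4 libraries. Of 338 symbols of that form, 146 lay under this minimum, and Slc2a1, Slc2a3, Slc27a2 and Slc25a31 were left out by name. The level that chose the members is given below as a description, with no test. The difference between the sorted fractions did not enter the choice. The last genes inside the minimum were Slc25a2 with 1.00 and Slc30a2 with 1.01 mean FPKM, and the first outside were Slc25a10 with 0.923 and Slc6a9 with 0.902. In 185 of the 188 members the mean of each fraction reached the minimum on its own. Slc47a2 and Slc25a2 passed only through the Emerald-positive libraries and Slc30a2 only through the Emerald-negative ones. Slc7a6os, Slc4a1ap, Slc9a3r1, Slc9a3r2, Slc2a4rg-ps and Slc10a3-ubl4, 6 of the 188, met the rule and were kept, although these symbols are named after a transporter and do not stand for one.

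Solute carriers are membrane proteins that move nutrients, metabolites and ions across the cell surface or the membranes of organelles. Most work by facilitated diffusion, by exchange, or by coupling uptake of the solute to the inward gradient of sodium or protons, and the sodium gradient is kept up by the sodium pump. Numbered families share ancestry and often a substrate class: Slc7 and Slc38 carry amino acids, Slc16 carries lactate, pyruvate and related acids, Slc30 and Slc39 move zinc in opposite directions, Slc35 brings nucleotide sugars into the Golgi and endoplasmic reticulum, and Slc25 forms the carriers of the inner mitochondrial membrane. Mouse embryonic stem (ES) cells divide fast and draw heavily on imported amino acids, glucose and nucleotide precursors.

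Whole-transcriptome RNA-seq compared sorted fractions of MC1-ZE7 cells, ES cells of strain MC1 (129S6/SvEvTac) in which the fluorescent protein Emerald reports Zscan4, a cluster of genes active in the 2-cell embryo and, at any time, in few ES cells of a culture. The Em+ group (the high fraction of Emerald fluorescence) and the Em- group each have 2 libraries, called replicates 1 and 2. All cells grew without feeder cells on gelatin, in serum medium with LIF, pyruvate, non-essential amino acids and a glutamine source, so the fractions shared the stated medium and the reporter. The labels name no separate cultures, sorts or clones, so each p-value reflects spread among 4 libraries that may be technical repeats. The comparison asks which transcripts differ between the high fraction of Emerald fluorescence and the Em- fraction.

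The titles gave the groups, and the description of each sample carries the other fraction's name. Zscan4c had 702 and 669 counts in the libraries titled Em+ and 4 and 6 counts in those titled Em-. RefSeq counts per library ranged from 16468218 to 18953217. Em+ replicate 2 stood apart: Rn45s, a ribosomal RNA precursor model, took 7.95% of its counts against 3.93 to 4.33% in the other libraries, and it held the highest of the 4 values in 31.4% and the lowest in 39.9% of the 188 Slc genes (35.3% and 36.4% of all 12050 genes tested). All 10 listed ES cell markers were expressed, from 27.9 mean FPKM for Klf4 to 614 for Dppa5a. The 9 tested markers of the 2-cell stage were higher in both Em+ libraries. All of them but Nelfa met the FPKM minimum only through the Em+ libraries, and Dux lay under it. Since the sort was also on a Zscan4 reporter, this outcome was largely set in advance and is given with no test. Of 8 fibroblast markers, Col3a1, Dcn, Lum and Postn are not listed in the table, Col1a1 had 18 to 47 counts a library, and the summed level of the 4 listed was 6.46 to 7.96 FPKM in Em+ and 4.94 to 5.18 in Em-, mostly from Thy1, which rose by 0.89 ± 0.11 (SE) on the log2 scale (adjusted p = 0.00386, edgeR). The part of these differences in the results on Slc genes was not tested. In bulk RNA from a sorted fraction, fewer cells of a type and less RNA per cell cannot be told apart.

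Few solute carrier genes differed between the fractions, and those that did were mostly genes of low level that rose in Em+. Slc25a18, Slc25a14, Slc16a6, Slc35e3, Slc43a3, Slc38a6, Slc23a1, Slc4a5 and Slc10a1 rose, by 1.45- to 3.04-fold, and Slc7a3 alone fell, with 1.33-fold more in Em-. The call was an adjusted p under 0.05 (edgeR's quasi-likelihood test, two-sided, Benjamini-Hochberg over all 12050 genes tested). It was met by 5.32% of the Slc genes against 4.64% of all genes tested. Higher calls made up 4.79% against 3.82%, and lower calls 0.532% against 0.822%, so each share was near its background.

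The rest of the distribution was narrow. The median log2 fold change of the 188 genes was -0.02, against 0.00 over all genes tested, and the range ran from -0.44 for Slc15a1 to 1.59 for Slc25a18. The log2 fold change was under 0.25 in size in 77.7% of the Slc genes and in 73.9% of all genes. A log2 fold change of at least 1 in size was found in 3 Slc genes, which is 1.60%, against 1.96% of all genes. At an unadjusted p under 0.05, 19 Slc genes were higher and 23 lower in Em+, together 22.3% against 25.3% of all genes. The 2 libraries of Em+ lay entirely above those of Em- in 43 Slc genes (22.9%, against 29.7% of all genes) and entirely below them in 69 (36.7%, against 29.7%).

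**Figure D1:**
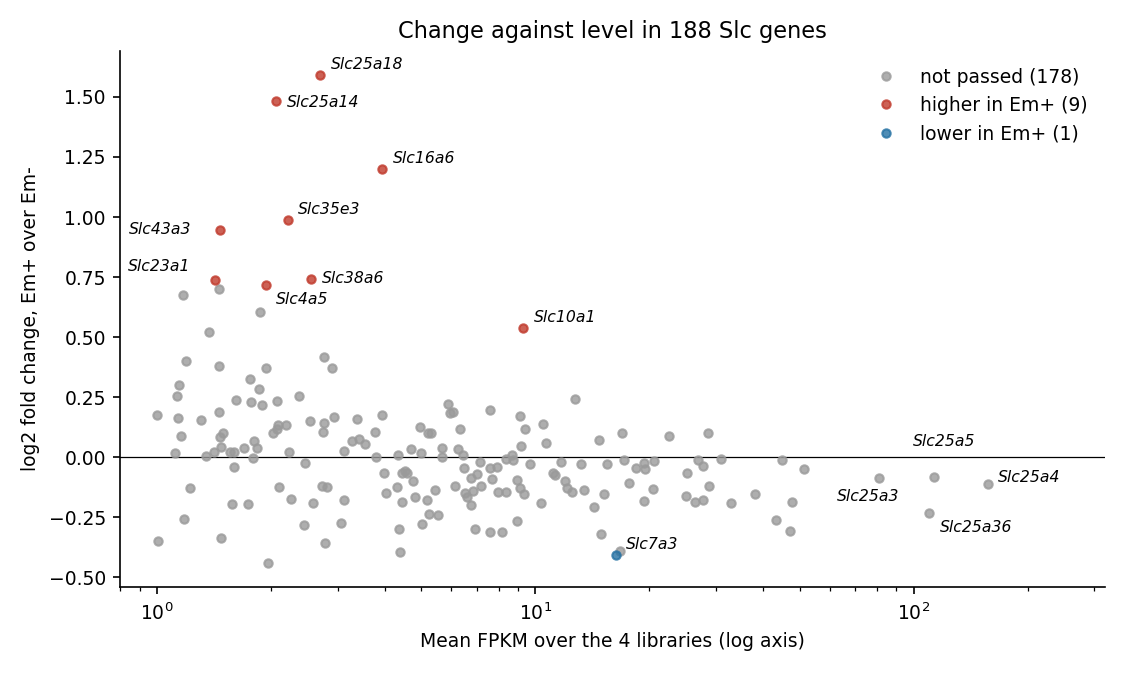
Log2 fold change (Em+ over Em-) of each of the 188 Slc genes against its mean FPKM over the 4 libraries on a log axis. Red points are the 9 genes that passed the test as higher, the blue point is Slc7a3, and grey points did not pass. The red points sit at low levels on the left, and the 4 most abundant carriers on the right lie within 0.25 of 0.

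The genes that rose were low in these cells. Their mean FPKM ranged from 1.42 for Slc23a1 to 9.29 for Slc10a1, with a median of 2.22 against 5.09 for all 188 Slc genes, and 8 of 9 lay under that median. Of the 49 Slc genes with at least 10 mean FPKM, 1 passed the test, and that was Slc7a3. The plot of change against level shows this spread. With mean FPKM of at least 5 as the filter, 1 Slc gene was higher and 1 lower among the 95 left, while 2.04% of all genes at that filter were higher and 0.316% lower.

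For 6 of the 9 genes that rose, RefSeq (GRCm38.p6, the build of the deposited coordinates) gives windows around the transcription start. The 250 bases before the start of Slc25a18, the gene with the largest rise, and of Slc35e3, the gene with the most CpG among the 6, are shown to compare the start regions of genes that moved the same way. Both read 5′ to 3′ on the gene's strand, and capitals mark the letters TATAAA or their complement TTTATA.
Slc25a18, chr6:120773518-120773767, plus strand: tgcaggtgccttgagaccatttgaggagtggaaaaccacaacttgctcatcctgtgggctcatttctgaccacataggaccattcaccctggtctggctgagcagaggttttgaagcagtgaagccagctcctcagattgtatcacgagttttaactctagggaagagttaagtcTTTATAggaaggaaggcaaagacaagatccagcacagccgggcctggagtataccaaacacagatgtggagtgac
Slc35e3, chr10:117746359-117746608, minus strand: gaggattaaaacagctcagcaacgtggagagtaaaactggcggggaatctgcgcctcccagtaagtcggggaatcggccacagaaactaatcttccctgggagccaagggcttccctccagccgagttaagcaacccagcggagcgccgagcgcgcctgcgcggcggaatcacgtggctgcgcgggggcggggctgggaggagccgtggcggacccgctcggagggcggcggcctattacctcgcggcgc
The Slc25a18 window of 300 bases, 250 before and 50 after the start, had 49.3% G and C with 4 CpG, and its TTTATA began 75 bases before the start. The Slc35e3 window had 68.0% G and C with 34 CpG and held neither form. Searched on both strands and alone, TATAAA was found in 3 of 9 windows of the genes that rose, in 9.47% of the Slc windows, in 6.75% of windows of all genes tested and in 13.6% of all 32851 windows. These are matches of letters only.

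Amino acid transporters carried the sole fall. Slc7a3 (chrX:101079221-101085352), a cationic amino acid transporter for arginine and lysine, had 71.4 and 65.4 TMM-scaled CPM (counts scaled to the size of the library) in the Em+ libraries (replicates 1 and 2, an order kept throughout) against 90.4 and 91.3 in Em-. The groups did not overlap, and the Em+ libraries were both lower (log2 fold change -0.41 ± 0.08 SE, adjusted p = 0.0264). Slc7a1, the widely expressed transporter of the same substrates, had 119 and 131 CPM in Em+ and 128 and 124 in Em-, with overlapping groups (-0.01 ± 0.07, adjusted p = 0.971). The call on Slc7a3 was lost in both limma fits (adjusted p = 0.112 and 0.124) and when either Em- library was left out. Without Em- replicate 1 its adjusted p was 0.176 and without replicate 2 it was 0.177, at log2 fold changes of -0.42 and -0.40. Over 16 alternatives its adjusted p ranged from 1.09e-04 to 0.177 and 12 kept the call.

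Slc38a6, a little-studied member of the sodium-coupled neutral amino acid family, rose in Em+. Its CPM was 17.6 and 22.6 in Em+ and 12.7 and 11.3 in Em- (log2 fold change 0.74 ± 0.15, adjusted p = 0.0357). Slc43a3, a family member known as a carrier of purine nucleobases and not of amino acids, had 9.81 and 11.6 CPM in Em+ and 5.66 and 5.43 in Em- (0.95 ± 0.14, adjusted p = 0.0112). Both Em+ libraries lay above both Em- libraries in each gene. Its family neighbour Slc43a1, which carries large neutral amino acids, had 10.1 and 10.7 CPM in Em+ and 11.6 and 11.01 in Em- (-0.12 ± 0.12, adjusted p = 0.536).

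In all, 2 of 30 genes of the families for amino acids, peptides and amines rose, Slc38a6 and the nucleobase carrier Slc43a3, and 1 fell, with a median log2 fold change of -0.05. Of the 30 estimates 20 were negative, against 102 of all 188 Slc genes and 5938 of all 12050 genes tested. The most abundant was Slc3a2, the heavy chain that anchors several Slc7 light chains at the surface, with 260 and 228 CPM in Em+ and 305 and 301 in Em- (-0.31 ± 0.08). Its groups did not overlap, but it did not pass the test (adjusted p = 0.0705), and neither did its light chain Slc7a7 (-0.31 ± 0.07, adjusted p = 0.0619). Slc7a5, the light chain for leucine and other large neutral amino acids, had overlapping groups of 192 and 208 CPM in Em+ and 207 and 203 in Em- (-0.03 ± 0.07, adjusted p = 0.780). The glutamine transporters Slc1a5 (-0.15 ± 0.08, adjusted p = 0.252) and Slc38a2 (-0.01 ± 0.07, adjusted p = 0.953) did not pass either. All 4 members of Slc1, the family of glutamate and neutral amino acid carriers, had negative estimates, from -0.17 to -0.04. Slc15a1, an intestinal peptide transporter with the most negative estimate of all 188, had 12.7 and 8.65 CPM in Em+ and 14.6 and 14.5 in Em- (-0.44 ± 0.17, adjusted p = 0.175). Slc7a11, the cystine and glutamate exchanger, is no member, since its mean was 0.128 FPKM.

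**Figure D2:**
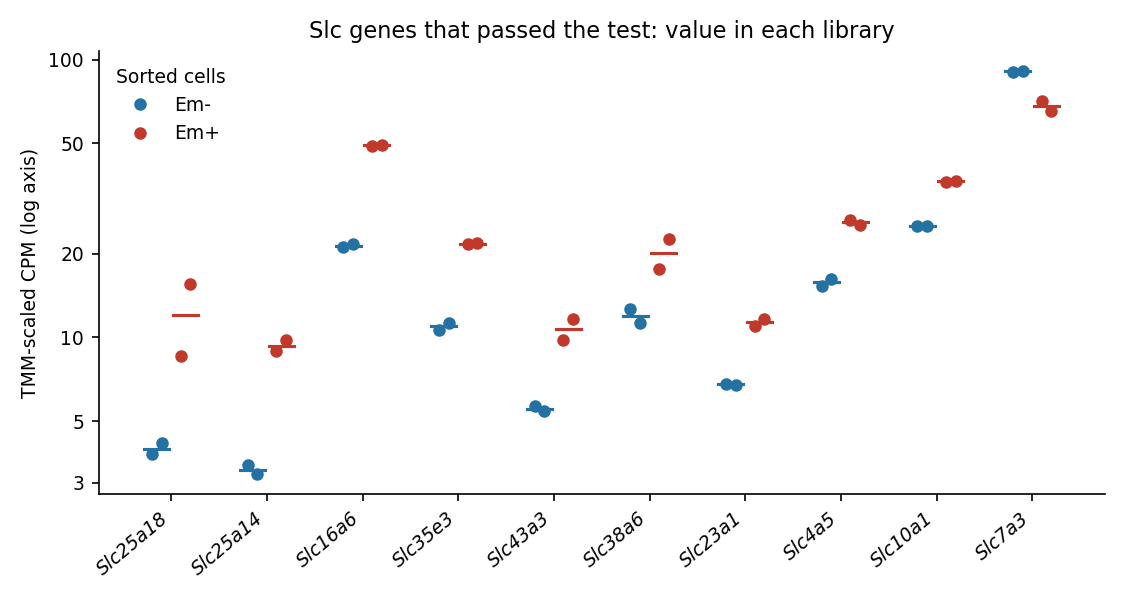
TMM-scaled CPM (log axis) of the 10 Slc genes that passed the test, 1 point per library, Em- in blue and Em+ in red, with a line at each group mean. The Em+ libraries lie above the Em- libraries in 9 genes and below them in Slc7a3, and the points of Slc25a18 in Em+ (8.58 and 15.6) are the farthest apart.

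Mitochondrial carriers held the 2 largest rises when all 4 libraries were used. Slc25a18 (chr6:120773768-120793982), which imports glutamate into the matrix, had 8.58 and 15.6 CPM in Em+ and 3.79 and 4.16 in Em-. It was highest in Em+ replicate 2, but Em+ replicate 1 was also above both Em- libraries (log2 fold change 1.59 ± 0.29, adjusted p = 0.0246). Without Em+ replicate 2 its log2 fold change was 1.11, below the 1.19 of Slc16a6 in that fit, and without Em+ replicate 1 it was 1.97. Slc25a14 (chrX:48623578-48662298), a carrier of the uncoupling protein group also known as Ucp5, had 8.92 and 9.79 CPM in Em+ and 3.46 and 3.21 in Em- (1.48 ± 0.15, adjusted p = 0.00145). Here the libraries of each fraction lay close together. Ucp2, of the same group under another symbol, had 31.7 and 34.6 CPM in Em+ and 32.2 and 30.7 in Em- (0.08 ± 0.08, adjusted p = 0.593).

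The other 32 of the 34 mitochondrial carriers did not pass, and none was called lower (4 were lower at an unadjusted p under 0.05, and DESeq2 and limma called 0 lower). Of all 12050 genes tested, 0.822% were called lower, and 1295 were lower at that unadjusted threshold. Estimates split evenly, 17 above and 17 below 0, around a median of -0.01. This family also held the highest levels of all Slc genes. The ADP/ATP carriers Slc25a4 and Slc25a5 had 157 and 113 mean FPKM, the pyrimidine nucleotide carrier Slc25a36 had 110 and the phosphate carrier Slc25a3 had 80.8. Slc25a36 had 634 and 649 CPM in Em+ and 753 and 754 in Em-, with no overlap, and missed the threshold (-0.23 ± 0.07, adjusted p = 0.111). Slc25a4 had 374 and 318 CPM in Em+ and 371 and 377 in Em-, so only Em+ replicate 2 was low (-0.11 ± 0.09, adjusted p = 0.461). Slc25a5 (-0.08 ± 0.08, adjusted p = 0.528) and Slc25a3 (-0.09 ± 0.06, adjusted p = 0.417) did not pass. The handling of reads that match several genes is not given in the sources used here, which bears on carriers with close copies such as Slc25a4 and Slc25a5. Slc25a31, the ADP/ATP carrier of the germ line that the selection left out by name, rose with 20.7 and 21.8 CPM in Em+ against 8.68 and 9.33 in Em- (1.24 ± 0.11, adjusted p = 7.78e-04).

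In the families for organic acids, lipids and organic ions, 2 of 17 genes rose. Slc16a6 (chr11:109450856-109473596), a monocarboxylate transporter known for moving ketone bodies, had 49.1 and 49.3 CPM in Em+ and 21.1 and 21.8 in Em-. The libraries of a fraction were nearly equal and the groups far apart, which gave the smallest adjusted p of the 188 genes (log2 fold change 1.20 ± 0.08, adjusted p = 9.58e-05). Slc10a1 (chr12:80953185-80968079), the sodium-coupled bile acid importer of liver cells, had 36.3 and 36.8 CPM in Em+ and 25.1 and 25.2 in Em- (0.54 ± 0.08, adjusted p = 0.00738). The lactate and pyruvate transporters Slc16a1 and Slc16a3 were more abundant per length, with 38.2 and 44.8 mean FPKM against 3.94 for Slc16a6. Slc16a1 had 359 and 303 CPM in Em+ and 359 and 378 in Em- (-0.15 ± 0.09, adjusted p = 0.324), and Slc16a3 had overlapping groups (-0.01 ± 0.09, adjusted p = 0.952).

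Slc13a5, a citrate importer, was higher in both Em+ libraries without passing. Slc13a5 had 22.6 and 22.2 CPM in Em+ and 16.9 and 17.7 in Em- (0.37 ± 0.10, adjusted p = 0.0740). Slc47a2, an exporter of organic cations, had 7.36 and 7.07 CPM against 4.01 and 5.01, and its values are given with no test because it met the FPKM minimum only through the Em+ libraries. The counts of higher Slc genes at an unadjusted p, with library totals, with the replicate block and without Em- replicate 2 still include Slc47a2. The 3 fatty acid transport proteins among the members, Slc27a1, Slc27a3 and Slc27a4, all had negative estimates between -0.30 and -0.13, while Slc27a2, left out by name, rose by 1.19 ± 0.13 (adjusted p = 0.00201). That rise rests on the RefSeq and known-gene models: in the Ensembl and ENCODE tables the log2 fold change of Slc27a2 was -0.08 in each, with adjusted p of 0.815 and 0.792 (6.95e-10 to 0.815 over 15 alternatives).

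Of 18 genes for nucleosides, vitamins, choline and heme, 1 rose. Slc23a1, a sodium-coupled importer of ascorbate, had 10.98 and 11.7 CPM in Em+ and 6.82 and 6.75 in Em- (log2 fold change 0.74 ± 0.12, adjusted p = 0.0174). Its more abundant relative Slc23a2 had 105 and 111 CPM in Em+ and 92.2 and 96.1 in Em-, above in both libraries, and did not pass (0.20 ± 0.07, adjusted p = 0.136). Slc52a2, a riboflavin importer, had 18.3 and 17.4 CPM in Em+ and 13.7 and 13.1 in Em- (0.42 ± 0.10, adjusted p = 0.0693). The equilibrative nucleoside transporter Slc29a1, with 47.7 mean FPKM, had 197 and 179 CPM against 211 and 217 (-0.19 ± 0.07, adjusted p = 0.162). The folate importer Slc19a1 did not pass (0.17 ± 0.11, adjusted p = 0.343). The 4 choline transporter-like genes, Slc44a1 to Slc44a4, all had estimates below 0, and Slc44a2 the most negative at -0.26 (adjusted p = 0.107).

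Of 20 genes of the families for nucleotide sugars and acetyl-CoA, 1 rose. Slc35e3 (chr10:117733678-117746358), a family member with no settled substrate, had 21.6 and 21.9 CPM in Em+ and 10.7 and 11.3 in Em- (log2 fold change 0.99 ± 0.10, adjusted p = 0.00189). The groups were narrow and did not overlap. Slc35b4, which brings UDP-xylose and UDP-N-acetylglucosamine into the Golgi, had 15.7 and 19.6 CPM in Em+ and 11.4 and 11.8 in Em- and just missed the threshold (0.60 ± 0.14, adjusted p = 0.0529). It passed with DESeq2, library totals, no filter, the Ensembl and ENCODE tables, the replicate block, 1 transcript per symbol and without Em- replicate 2. Slc35f2 and Slc35f5, distant members of the family, missed it in the other direction. Slc35f2 had 82.6 and 71.2 CPM in Em+ and 102 and 99.7 in Em- (-0.39 ± 0.09, adjusted p = 0.0504), and passed with DESeq2, both other scalings, no filter, the replicate block and 1 transcript per symbol. Slc35f5 had 20.01 and 20.7 CPM against 27.1 and 26.3 (-0.39 ± 0.09, adjusted p = 0.0517), and passed with library totals, no filter, the replicate block and 1 transcript per symbol. The Golgi carriers of CMP-sialic acid, Slc35a1, and of UDP-galactose, Slc35a2, had estimates of -0.21 and -0.23 (adjusted p = 0.173 and 0.146).

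**Figure D3:**
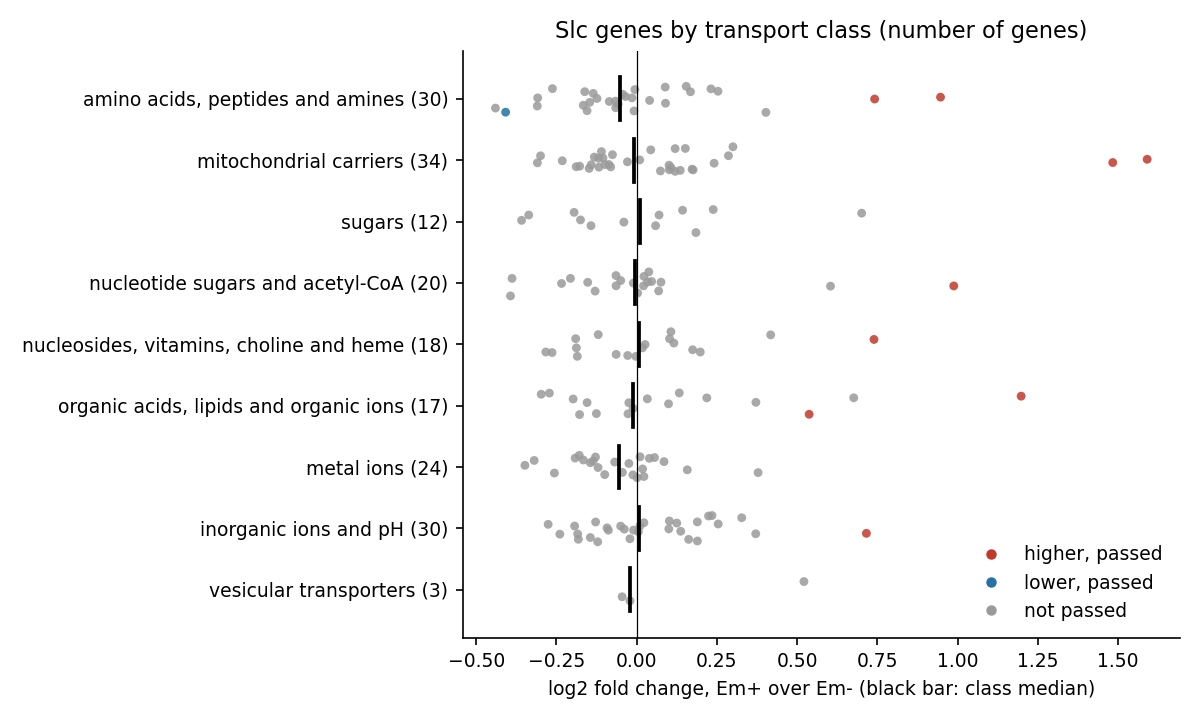
Log2 fold change (Em+ over Em-) of the 188 Slc genes by transport class, with the number of genes of each class in brackets and a black bar at the class median. Red points passed the test as higher and the blue point as lower. The medians lie between -0.06 and 0.01, and the genes that rose fall in 6 of the 9 classes.

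The families for inorganic ions and pH also gave 1 rise in 30 genes, a number that includes Slc4a1ap, Slc9a3r1 and Slc9a3r2. Slc4a5 (chr6:83237375-83304945), an electrogenic sodium bicarbonate cotransporter, had 26.5 and 25.5 CPM in Em+ and 15.3 and 16.3 in Em- (log2 fold change 0.72 ± 0.10, adjusted p = 0.00629). Slc4a8, a sodium-driven chloride bicarbonate exchanger, had 46.7 and 62.0 CPM in Em+ against 40.9 and 42.9 (0.37 ± 0.13, adjusted p = 0.142), with the higher value in Em+ replicate 2. The phosphate importer Slc20a1, the most abundant of the class with 51.1 mean FPKM, had 206 and 216 CPM in Em+ and 218 and 219 in Em- (-0.05 ± 0.06, adjusted p = 0.647). All 4 anion exchangers of Slc26 had estimates above 0, from 0.01 to 0.19. None of the 7 Slc9 members passed, among them the sodium-proton exchangers Slc9a5, Slc9a8, Slc9b1 and Slc9b2. The estimates of the 7 ran from -0.24 for Slc9a3r2 to 0.23.

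No metal ion, sugar or vesicular transporter passed the test. Among 24 metal ion transporters 1 was higher and 1 lower at an unadjusted p under 0.05, and DESeq2 and limma called 0. Of all genes tested, 25.3% met that unadjusted threshold in either direction. DESeq2 called 5.63% of all genes, and the limma fits 2.43 and 2.23%. The zinc exporter Slc30a4 had 18.8 and 17.9 CPM in Em+ and 14.5 and 13.8 in Em- (log2 fold change 0.38 ± 0.10, adjusted p = 0.0871). The zinc importer Slc39a4 had 65.2 and 56.3 CPM in Em+ and 77.1 and 74.7 in Em- (-0.32 ± 0.09, adjusted p = 0.0913). Groups did not overlap in either gene. The abundant zinc importers Slc39a7 and Slc39a10 (27.7 and 26.96 mean FPKM) had -0.18 and -0.01.

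Of 12 genes of the families for sugars 1 was higher and 1 lower at an unadjusted p under 0.05, limma called 0 and DESeq2 called 1. That gene was Slc37a2, a sugar phosphate exchanger of the endoplasmic reticulum, with 14.4 and 19.6 CPM in Em+ and 9.67 and 11.2 in Em- (0.70 ± 0.17, adjusted p = 0.0632 in edgeR and 0.0226 in DESeq2). Its adjusted p ranged from 4.69e-04 to 0.206 over 15 alternatives. The glucose transporters left out by name, Slc2a1 and Slc2a3, did not pass (0.18 ± 0.07, adjusted p = 0.184, and 0.02 ± 0.12, adjusted p = 0.949). Among 3 vesicular transporters 1 was higher at an unadjusted p under 0.05, Slc18a2, which loads monoamines into vesicles, with 11.1 and 15.0 CPM in Em+ and 8.90 and 9.22 in Em- (0.52 ± 0.16, adjusted p = 0.111). DESeq2 and limma called 0 of the 3. For the sugar and vesicular genes alike, the background was 25.3% of all genes at an unadjusted p under 0.05. DESeq2 called 5.63% of all genes, and the limma fits 2.43 and 2.23%.

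Summed over the members of a class, the amino acid transporters held 2644 and 2634 CPM in Em+ and 2852 and 2819 in Em-, and the mitochondrial carriers 2977 and 2863 against 3106 and 3135. In both classes each Em+ library was below each Em- library. The same held for metal ion transporters, with 1458 and 1408 CPM in Em+ and 1493 and 1507 in Em-. It also held for the families of nucleotide sugars and acetyl-CoA (759 and 721 against 773 and 774). The families of nucleosides, vitamins, choline and heme did likewise (819 and 798 against 849 and 852.5). In the remaining classes the sums overlapped, as in organic acid carriers with 963 and 871 CPM in Em+ and 912 and 928 in Em-. These sums follow the most abundant genes and carry no test. Of all single genes tested, 29.7% lay entirely lower in Em+. A lower sum was not particular to these classes. It was also found for ES cell markers (6458 and 5757 against 6538 and 6452) and amino acid response genes (3285 and 2995 against 3442 and 3504). The sums of 2-cell-stage and fibroblast markers were higher in Em+. Those of trophoblast markers and of transporters with other symbols overlapped.

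Transporters with symbols of another form gave no call. Of 28 tested (among them Ucp2, the sideroflexins Sfxn1, Sfxn2, Sfxn3 and Sfxn5, the phosphate exporter Xpr1, and genes of the Mfsd and Slco families), 2 were higher and 5 lower at an unadjusted p under 0.05, DESeq2 and limma called 0, and the median log2 fold change was 0.04. Of all genes tested, 25.3% met that unadjusted threshold in either direction, so this share was near its background. Calls in the main test were 3.82% higher and 0.822% lower over all genes. Of 15 tested accessory proteins and sodium pump subunits, 1 fell and none rose, with a median of -0.15 (1 was higher and 4 lower at an unadjusted p under 0.05, which 25.3% of all genes met in either direction, DESeq2 called 0 higher and 1 lower, and limma called 0). The gene that fell was Arl6ip5, a membrane protein that holds back a glutamate transporter, with 41.9 and 37.8 CPM in Em+ and 51.3 and 51.9 in Em- (-0.37 ± 0.08, adjusted p = 0.0492). Bsg, the chaperone of Slc16a1 and Slc16a3, had 486 and 407 CPM against 506 and 488 (-0.15 ± 0.09, adjusted p = 0.338).

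Of 22 tested genes of the amino acid response, the program that Atf4 drives when amino acids run short and that includes several Slc genes, 1 fell and none rose. Of all genes tested, 0.822% were called lower and 3.82% higher. Ddit3, a transcription factor of that response, had 48.1 and 42.8 CPM in Em+ and 58.8 and 63.6 in Em- (log2 fold change -0.43 ± 0.09, adjusted p = 0.0424). At an unadjusted p under 0.05, 9 were lower and 0 higher, and the median was -0.11. Of all 12050 genes, 1295 were lower and 1750 higher at that threshold, together 25.3%. DESeq2 called 3 lower and 0 higher (5.63% of all genes in either direction), and limma called 0. Atf4 itself had 226 and 196 CPM in Em+ and 253 and 248 in Em- (-0.25 ± 0.08, adjusted p = 0.121). Asns, an enzyme that makes asparagine, had overlapping groups of 380 and 338 against 337 and 350 CPM (0.07 ± 0.08, adjusted p = 0.625).

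Leaving out each library in turn changed how many Slc genes passed. Without Em+ replicate 1, 32 were higher and 42 lower, against a background of 21.9% and 19.5% of all genes, and without Em+ replicate 2, 17 were higher and 18 lower, against 9.43% and 6.90%. In these fits the spread comes from the Em- pair alone, and the lone Em+ library is taken to vary like it. The median difference between the libraries of a fraction was 0.06 on the log2 scale in Em- and 0.12 in Em+ over the 188 genes. Without Em- replicate 1, 9 were higher and 0 lower, against 3.79% and 0.274% of all genes, and without Em- replicate 2, 12 were higher and 0 lower, against 4.27% and 0.606%. At an unadjusted p under 0.05 these fits had 9 and 8 lower Slc genes. All 9 genes that rose were called in each of the 4 fits. Of the genes that just missed the threshold, Slc3a2 was called without either Em+ library and in neither fit without an Em- library.

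**Figure D4:**
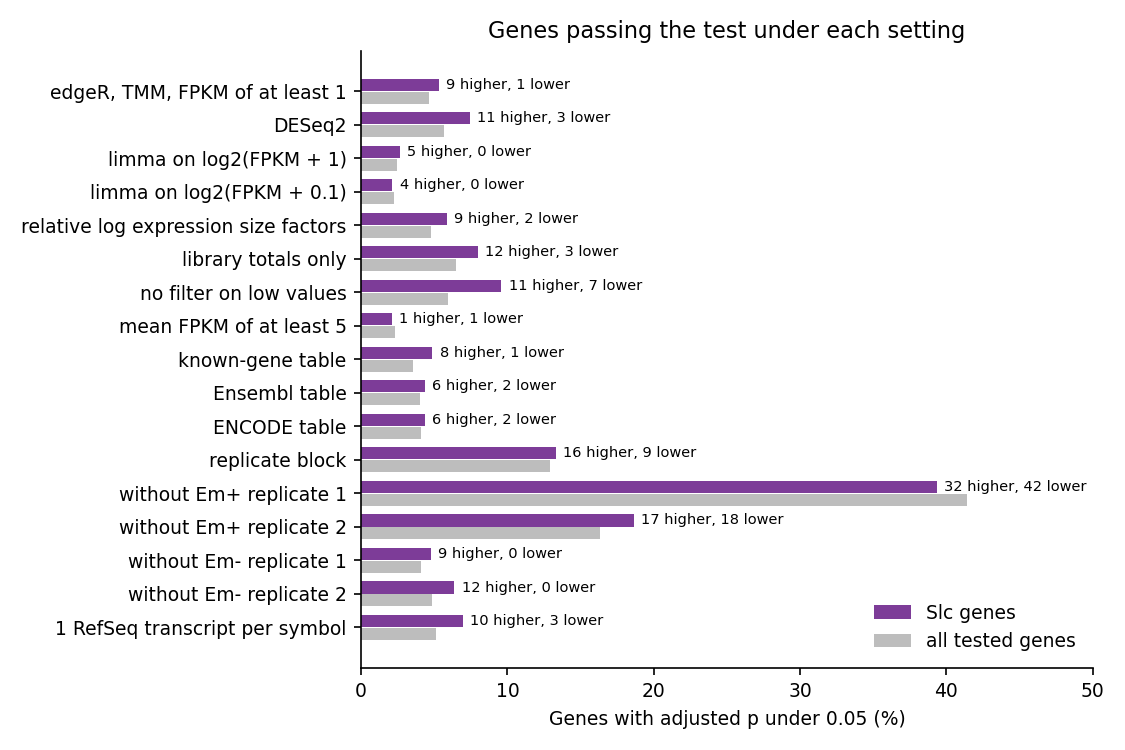
Share of the 188 Slc genes (purple; fewer where a filter or another table leaves fewer) and of all tested genes (grey) with an adjusted p under 0.05 under each setting, with the number of Slc genes higher and lower beside the bar. The purple bars run from 2.11% of Slc genes with mean FPKM of at least 5 to 39.4% without Em+ replicate 1, where the grey bar is at 41.4%.

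Transcript models mattered for some of the genes that rose. Slc16a6, Slc25a18, Slc35e3, Slc38a6 and Slc10a1 passed in all 4 deposited annotations. Slc10a1 and Slc38a6 lost the call in both limma fits, where the median log2 fold change of all genes was -0.14 and -0.16. The adjusted p of Slc10a1 and Slc38a6 reached 0.221 and 0.0855 over all alternatives. Slc4a5, Slc23a1 and Slc43a3 missed the threshold in the Ensembl and ENCODE tables, with adjusted p from 0.0547 to 0.0715 and log2 fold changes from 0.63 to 0.82. Over all alternatives the adjusted p ranged from 1.75e-04 to 0.147 for Slc4a5, from 0.00201 to 0.164 for Slc23a1 and from 2.84e-04 to 0.0618 for Slc43a3, and Slc43a3 was under the FPKM minimum in the known-gene table. Slc25a14 was under the minimum in the Ensembl and ENCODE tables and passed in the known-gene table (1.41 ± 0.15). For Slc38a6 the log2 fold change was 0.74 in RefSeq and 1.20 in the known-gene table, where 58.1% of its reads were in a shorter model, chr12:73287060-73312524. For Slc4a5, 94.5% of the known-gene reads were in a model of the gene's 3′ part, chr6:83277412-83304945, with 465 and 398 counts in Em+ and 273 and 297 in Em-. The full-length model held 24 and 20 counts in Em+ and 16 and 24 in Em-, so the groups did not separate there. How reads were divided between models of a gene is unstated, so these shares are not a measure of isoform use.

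The tested genes next to the 9 that rose mostly did not pass. Exceptions were Atp6v1e1, a proton pump subunit gene that ends 1075 bases from Slc25a18 on the opposite strand (log2 fold change 0.57 ± 0.07, adjusted p = 0.00318), and Spata24, a spermatogenesis gene 26844 bases from Slc23a1 (0.71 ± 0.15, adjusted p = 0.0441). Slc16a6, Slc38a6 and Slc23a1 overlap Arsg, Trmt5 and Paip2 on the opposite strand. Those genes had 0.21, -0.00 and -0.01 with adjusted p of 0.358, 0.999 and 0.931. Slc7a3 overlaps Snx12 on the same strand (-0.14 ± 0.09, adjusted p = 0.350). Whether the counting used strand is not given in the sources used here, so reads from such overlaps cannot be assigned with certainty.

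The 146 Slc symbols under the FPKM minimum could be examined only in the fit with no filter on low values. In that fit, where 4.48% of all genes were called higher and 1.47% lower, 6 of the 146 rose. They were Slc25a24, Slc40a1, Slc4a4, Slc23a3, Slc44a5 and Slc4a10, named after their values were seen. More reads in Em+ than in Em- were counted for 104 of the 146 (71.2%), against 65.9% of all 7747 symbols under the minimum. Of the 6 that rose, Slc4a4 had the most reads. It encodes an electrogenic sodium bicarbonate cotransporter like Slc4a5 and had 160 and 156 counts in Em+ and 38 and 30 in Em- (log2 fold change 2.29 ± 0.19, adjusted p = 5.88e-05). Slc40a1, the iron exporter ferroportin, had 92 and 69 counts against 25 and 44. Slc25a24, a mitochondrial exchanger of ATP-magnesium and phosphate, had 126 and 107 against 56 and 69. The same fit called 11 of the 188 members higher and 7 lower.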

How the data were processed

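RNA of sorted MC1-ZE7 cells was measured in 4 libraries. Groups and replicate numbers come from the sample titles. Per the file headers, the authors' 4 deposited tables (RefSeq, known-gene, Ensembl and ENCODE models) hold counts and FPKM per transcript. The submitters' processing notes name Bowtie2 and mm10. Use of strand is not given in the sources used here, nor are the counting program and the annotation releases. FPKM was scaled to all reads, not only those in genes.

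For Em- replicate 1 the deposited RefSeq and Ensembl count columns are 0 throughout, and these 2 columns were not used. Its counts were rebuilt by multiplying FPKM (plus 0.0005 for the cut decimals) by transcript length and library total, then rounding. Of 24538 RefSeq transcripts, 99.93 to 99.95% came out exact when the other libraries were treated this way. Against the known-gene counts of the same library, 99.46% of 13036 shared transcripts were equal and 99.93% within 1 read.

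Counts and FPKM were summed per symbol. Genes with a mean of at least 1 FPKM were tested (12050) with edgeR 4.0.16 in R 4.3.3 (TMM scaling, quasi-likelihood test, no covariate, two-sided, Benjamini-Hochberg, threshold 0.05). The design had named limma for FPKM, with edgeR if counts were found. Levels are TMM-scaled CPM, and SEs of log2 fold changes derive from the F statistic. The test was also run on simulated counts with the same spread for all genes and both groups. The Em+ libraries differ more than the Em- libraries, so that run does not show how the test behaves here. Library totals of 16468218 to 18953217 counts and the common biological coefficient of variation of 0.0731 set the precision, together with 2 libraries per group. Alternatives used DESeq2 1.42.0, limma 3.58.1 on log2(deposited FPKM + 1) and + 0.1, other scalings, filters and tables, a replicate block, and each library left out. Keeping 1 RefSeq transcript per symbol was added after seeing the data. Of the 188 members, 140 have 1 RefSeq transcript, and 187 matched the RefSeq gene table by symbol, all with overlapping position. Strands came from GENCODE on the same build.

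Genes were named by rule: those that passed, the 6 most abundant, 10 transporters of dividing cells, those beside the FPKM minimum, those left out by name, and the largest estimate per class. Others are named for missing the threshold narrowly or as relatives of a named gene, after their values were seen. The small families whose estimates all shared a sign were picked out of 45 families in the same way. The members, classes and lists were chosen with earlier results of these data known.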

Additional observations from a re-analysis of the deposited data

How the results depend on the processing

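The main analysis called 9 of 188 Slc genes higher and 1 lower, with a median log2 fold change of -0.02. Counts of lower genes moved most: 3 with DESeq2, 2 with relative log expression size factors, 3 with library totals, 7 with no filter on low values, 2 in the Ensembl and 2 in the ENCODE table, and 3 with 1 RefSeq transcript per symbol, a setting chosen after seeing the data. In either direction these settings called 4.35 to 9.57% of the Slc genes and 4.01 to 6.46% of all genes. Limma on log2(FPKM + 1) and log2(FPKM + 0.1) called 5 and 4 higher and 0 lower (2.66 and 2.13% of the Slc genes, 2.43 and 2.23% of all genes), where unadjusted p under 0.05 gave 26 lower in each. There the median of all genes was itself at -0.14 and -0.16, and that of the Slc genes at -0.1650 and -0.1819. The limma fits used the deposited FPKM, which was scaled to all reads. Of the reads behind the FPKM, RefSeq models held 49.011 and 43.445% in Em+ replicates 1 and 2. In Em- replicates 1 and 2 they held 51.145 and 50.727%. The part of this difference in the limma medians and calls was not tested. The Slc median was -0.0347 with library totals, -0.0769 without the filter and -0.0436 with mean FPKM of at least 5. That last filter left 95 Slc genes. Only 2 of the 10 called genes, Slc10a1 and Slc7a3, were among them, and both kept their call. Leaving out each library gave 9 to 32 higher and 0 to 42 lower genes and medians from -0.0460 to -0.0247.

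The replicate block gave 16 higher and 9 lower, 13.3% of the Slc genes against 12.9% of all genes. The 16 include Slc47a2, which met the FPKM minimum only through the Em+ libraries. Deviations of same-numbered libraries from their group means correlated at 0.0235, and with 2 pairs the samples share only a number. All 10 called genes were kept with DESeq2, both other scalings, no filter, the block and 1 transcript per symbol.

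Signs of small estimates turned. Slc25a2 was -0.0025 and -0.0328 with limma and between -0.2530 and 0.4782 with each library left out. Slc2a3 was -0.1535 and -0.1540 with limma, -0.0423 without the filter and between -0.1060 and 0.1255 with each library left out. With mean FPKM of at least 5 Slc38a2, Slc7a1 and Slc7a5 were 0.0311, 0.0338 and 0.0045, and with each library left out they ran from -0.0607 to 0.0412, from -0.0783 to 0.0633 and from -0.0970 to 0.0239. Slc27a2 was -0.0786 in the Ensembl and -0.0843 in the ENCODE table. Their causes were not tested. With 2 libraries a group, small differences are not detectable.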
